A study of Mus musculus with 4 samples.

Results

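De novo lipogenesis builds fatty acids from glucose carbon, and in mammary fat pad (MFP) tissue it takes place mainly in adipocytes outside lactation. Citrate leaves the mitochondrion and is split to acetyl-CoA, which is carboxylated to malonyl-CoA and joined into palmitate with reducing power from NADPH. Palmitate is then lengthened and desaturated before it is stored as triglyceride, and the genes of the route are switched on together by the transcription factors SREBP-1c, which follows insulin, and ChREBP, which follows glucose. The 10 genes described here are the enzymes Acly, Me1, Acaca, Fasn, Elovl6, Scd1 and Scd2 and the regulators Srebf1, Mlxipl and Thrsp. They were taken as the rows of the count table with exactly these symbols, 10 of the 55487 genes listed. All 10 were among the 22485 genes with enough reads to be tested.

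RNA of whole MFP tissue was sequenced from female C57BL/6J mice aged 14 months (aged, n = 2) and 8 weeks (young, n = 2). No transgene or treatment is named for either group. The samples are labelled as biological replicates 1 and 2 of each age. The sources used here do not say whether a replicate was a single animal or a pool. The p-values therefore set the age difference against the spread between these samples, not between known single animals. The comparison of aged with young MFP asks how gene expression of the fat pad differs with age.

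The deposited values are counts of reads per gene, which sum to between 68803304 and 98402403 a library, and they are given here as CPM (counts per 1000000 counts of the library), with the library total scaled by the TMM method of edgeR. At this depth 3 counts, the smallest number taken as different from 0, are worth 0.0407 CPM or less, a floor that covers counting error only, and each of the 10 genes had at least 14873 counts in every library. Each library holds every cell type of the fat pad, and fewer adipocytes cannot be told apart from less RNA per adipocyte. All 10 adipocyte markers examined were detected, led by Cfd (adipsin) at 2959 CPM or more in each library. Libraries differed in other tissue. The summed level of 10 skeletal muscle markers was 38530 and 61203 CPM in the aged and 9962 and 13938 CPM in the young samples, and all 10 were higher in both aged samples, an order that 23.3% of all genes tested had. The summed level of 6 immune markers was 1045 CPM in young replicate 1 and between 61.4 and 172 CPM elsewhere, with Cd3e of T cells at 124 CPM and Cd79a of B cells at 74.5 CPM in that library. The 8 mammary epithelial markers tested summed to 1049 and 1048 CPM in the aged and 606 and 1338 CPM in the young samples, with the milk protein gene Wap at 0 counts in every library and Csn2 at 0 counts in both aged libraries. Brown fat, endothelial, and skin and sebaceous gland markers summed to 107 to 162, 443 to 608, and 8.99 to 13.3 CPM, with Awat1 at 0 counts in every library. The part of these other tissues in the lipogenic values was not tested.

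Promoter sequence is shown for Fasn, the end point of the route, and for Mlxipl, which encodes ChREBP and has several starts. The windows are the 200 bases before the start on the strand of the gene, from RefSeq on GRCm38.p6. Capitals mark the motifs searched, which were the CCAAT box (CCAAT, bound by NF-Y), the E-box (CACGTG, the core of a carbohydrate response element) and a sterol response element (TCACNCCAC, bound by SREBP), each on either strand. In Fasn a CCAAT box and a reverse copy overlap by 2 bases.
Fasn (chr11:120824548-120824747, minus strand): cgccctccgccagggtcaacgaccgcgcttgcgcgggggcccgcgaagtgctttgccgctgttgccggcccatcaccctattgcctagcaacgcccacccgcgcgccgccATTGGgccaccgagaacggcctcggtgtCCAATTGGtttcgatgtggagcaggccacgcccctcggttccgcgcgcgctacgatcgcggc
Mlxipl, upstream start (chr5:135089690-135089889, plus strand): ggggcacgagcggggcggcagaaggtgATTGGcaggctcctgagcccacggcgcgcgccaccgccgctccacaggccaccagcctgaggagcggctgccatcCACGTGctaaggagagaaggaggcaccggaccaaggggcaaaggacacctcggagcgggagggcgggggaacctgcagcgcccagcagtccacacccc
Mlxipl, downstream start (chr5:135106691-135106890, plus strand): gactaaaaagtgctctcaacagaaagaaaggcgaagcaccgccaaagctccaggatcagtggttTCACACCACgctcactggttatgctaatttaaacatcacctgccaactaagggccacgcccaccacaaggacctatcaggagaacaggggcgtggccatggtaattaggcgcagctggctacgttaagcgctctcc
These 2 starts of Mlxipl lie 17001 bases apart, and the upstream first exon is known to give a shorter and more active protein whose own RNA is induced by ChREBP. The E-box lies before the upstream start and the sterol response element before the downstream start. Over the 250 bases before each start, 8 of the 10 genes had a sequence, at 12 starts. Of these 8, Fasn, Me1, Srebf1, Mlxipl and Thrsp held a CCAAT box, and only Mlxipl held the E-box or the sterol response element as spelt here. Counted by window, 6 of the 12 held a CCAAT box, 1 the E-box and 1 the sterol response element. The match of Me1 lies before a start inside the gene, and the window at its gene end has none. The only window of Acaca, which held none of the motifs, also lies inside its gene. In the Thrsp window 180 of the 250 bases are annotated exon, and in the Elovl6 window 160. Among 32851 promoter windows of the same length, 33.8% held a CCAAT box, 6.02% the E-box and 1.05% the sterol response element. These matches describe the letters of the windows. The counts sum over all transcripts of a gene, so transcripts of the 2 starts of Mlxipl, and the SREBP-1a and SREBP-1c forms of Srebf1, are not separated.

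The lipogenic genes were among the most abundant RNAs of the tissue. Together they took 4.13% and 8.96% of all counts in aged replicates 1 and 2, and 5.97% and 6.52% in young replicates 1 and 2. Fasn and Scd1 alone accounted for most of this share, with 1.69% and 3.33% of counts for Fasn in aged MFP, beside 2.65% and 3.05% in young MFP. Fasn was the gene with the most counts in young replicate 2, and Scd1 was the gene with the most counts in aged replicate 2.

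Levels between genes were compared per length, as TPM (the share of transcripts, scaled like CPM but after division by exon length) over the exons annotated in GENCODE M21 on GRCm38. In young MFP the order was led by Scd1, the main stearoyl-CoA desaturase of fat, at 12142 ± 259 TPM (SD, n = 2), and by Fasn at 8306 ± 1667 TPM (SD, n = 2). Acly at 2881 ± 847, Thrsp at 2419.5 ± 539 and Me1 at 2208.5 ± 592 TPM (SD, n = 2 each) followed and did not differ from one another beyond their spread. Acaca at 684 ± 185 and Srebf1 at 495 ± 167 TPM (SD, n = 2 each) came next, also within their spread of each other. Elovl6 at 360 ± 60.8, Scd2 at 318 ± 80.7 and Mlxipl at 146 ± 63.3 TPM (SD, n = 2 each) had the lowest means. Of these, Elovl6 and Scd2 were within their spread of each other and of Srebf1. In aged MFP the first 5 places by the means were the same, at 17390 ± 8768 TPM for Scd1, 7724 ± 3747 TPM for Fasn, 2854 ± 2454 TPM for Acly, 2148 ± 1267 TPM for Thrsp and 1907 ± 1848 TPM for Me1 (SD, n = 2 each). Acly, Thrsp and Me1 again did not differ beyond their spread, and neither aged library had their order. Thrsp at 1252.5 TPM was above Acly at 1119 TPM in aged replicate 1. In aged replicate 2, Me1 at 3214 TPM was above Thrsp at 3044 TPM. Elovl6 was sixth at 927 ± 822 TPM (SD, n = 2), but its spread covered Acaca at 665 ± 369, Scd2 at 513 ± 246 and Srebf1 at 457 ± 42.6 TPM, with Mlxipl last at 203 ± 41.7 TPM (SD, n = 2 each). The exon length of Acaca, 17074 bases over 9 transcripts, makes its TPM a low estimate if the shorter transcripts prevail.

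**Figure D1:**
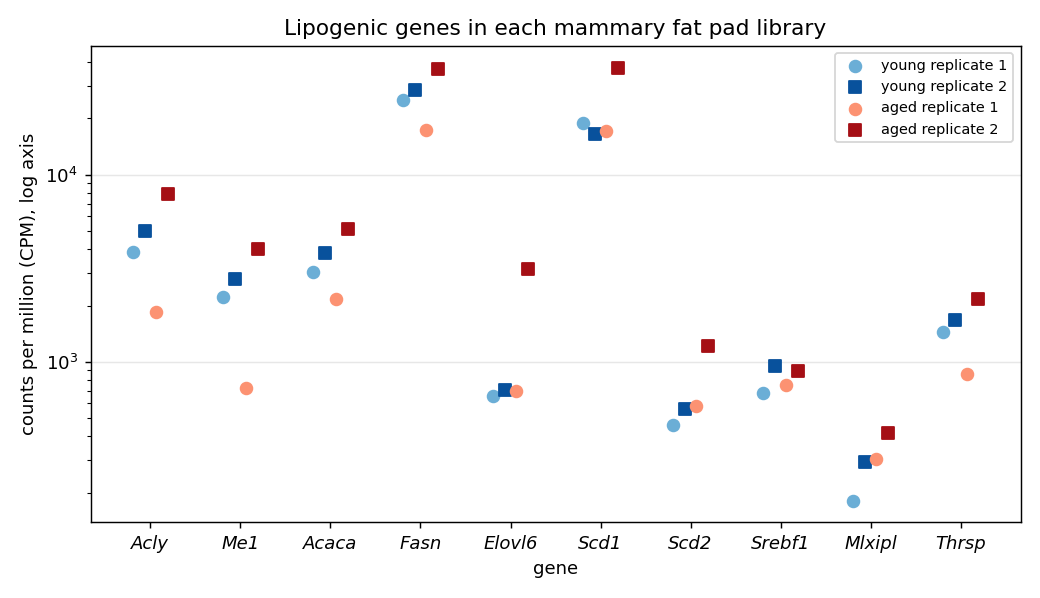
CPM (log axis) of the 10 lipogenic genes in each of the 4 mammary fat pad libraries, 1 point per library, circles for replicate 1 and squares for replicate 2. Aged replicate 2 (dark red) is the highest point for every gene except Srebf1, and aged replicate 1 (light red) is the lowest point for Acly, Me1, Acaca, Fasn and Thrsp.

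None of the 10 genes was called different between aged and young MFP. The aged libraries instead lay far apart for most of them. Aged replicate 2 was the highest of the 4 libraries for 9 of the 10 genes, which was true of 21.6% of all genes tested. For 5 of the 10, Acly, Me1, Acaca, Fasn and Thrsp, it was the highest while aged replicate 1 was the lowest, which was true of 4.21% of all genes tested. By the quasi-likelihood test of edgeR, adjusted by Benjamini-Hochberg, 0 of the 10 genes were called, against 0.0% of all genes tested. At an unadjusted p under 0.05 there were also 0 of 10, against 10.5% of all genes (7.24% higher and 3.31% lower in aged MFP). DESeq2, the tool named by the study, called 0 of the 10, against 3.95% of the genes it tested (3.24% higher and 0.71% lower). The median log2 fold change of the 10 genes was 0.10, beside -0.04 over all genes tested, and it was -0.38 without aged replicate 2 and 0.73 without aged replicate 1. The signs of the small differences of Fasn, Acly, Acaca and Srebf1 turned with the scaling of the libraries or the replicate block, so no direction is read from them.

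Acly, Me1, Acaca and Fasn provide acetyl-CoA and NADPH and build palmitate from them, and they shared a pattern in which aged replicate 1 was low and aged replicate 2 high. Acly (ENSMUSG00000020917, chromosome 11 of GRCm38, 100476353 to 100528000, minus strand), the ATP citrate lyase that makes cytosolic acetyl-CoA, was at 1845 and 7853 CPM in aged replicates 1 and 2 and at 3882 and 5033 CPM in young replicates 1 and 2. The aged values enclosed the young values, 4.26-fold apart where the young values were 1.30-fold apart. For Acly the log2 fold change, aged over young, was 0.12 (SE 0.78, edgeR adjusted p = 0.956), with a 95% interval from -2.02 to 2.26, and it was -1.28 without aged replicate 2 and 0.80 without aged replicate 1.

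Me1 (ENSMUSG00000032418, chromosome 9, 86581371 to 86695953, minus strand), the cytosolic malic enzyme that supplies NADPH, had the widest gap of the 10 genes. It was at 722 and 4009 CPM in the aged and 2219 and 2769 CPM in the young samples. Aged replicate 2 was thus 5.55-fold above aged replicate 1, a larger absolute log2 difference than in 98.7% of all genes tested. The log2 fold change was -0.08 (SE 0.86, edgeR adjusted p = 0.973), moving to -1.79 without aged replicate 2 and to 0.67 without aged replicate 1.

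Acaca (ENSMUSG00000020532, chromosome 11, 84129672 to 84401651, plus strand), the acetyl-CoA carboxylase of the cytosol, was at 2155 and 5122 CPM in the aged and 3041 and 3809 CPM in the young samples. Its log2 fold change was 0.09 (SE 0.53, edgeR adjusted p = 0.953). The fatty acid synthase gene Fasn, whose product assembles palmitate, is ENSMUSG00000025153 on the minus strand of chromosome 11 (120805846 to 120824547). It was at 17352 and 36805 CPM in aged replicates 1 and 2, outside the young values of 25145 and 28443 CPM on both sides, with a log2 fold change of 0.015 (SE 0.75, edgeR adjusted p = 0.994). Relative to the mean of the young libraries on the log2 scale, Fasn was at 0.649-fold in aged replicate 1 and 1.38-fold in aged replicate 2. Its 95% interval for the log2 fold change in this fit ran from -2.03 to 2.06. That interval covers 4-fold changes in either direction, so the fit did not exclude an age effect of that size. The SE depended on the method and was 0.45 in DESeq2.

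Elovl6, Scd1 and Scd2, which act on palmitate after it is made, showed another pattern, in which aged replicate 1 was close to the young libraries and aged replicate 2 alone was high. This grouping was made after the values were seen. Elovl6 (ENSMUSG00000041220, chromosome 3, 129532355 to 129638495, plus strand), which lengthens palmitate to stearate, was at 695 CPM in aged replicate 1, between the young values of 658 and 711 CPM, and at 3144 CPM in aged replicate 2. Its log2 fold change of 1.49 (SE 0.77, edgeR adjusted p = 0.533) was the largest of the 10 genes and rests on aged replicate 2. Without that library it was 0.02, and without aged replicate 1 it was 2.18.

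Scd1 (ENSMUSG00000037071, chromosome 19, 44394455 to 44407879, minus strand) was at 17101 and 37405 CPM in the aged and 18854 and 16517 CPM in the young samples, so that aged replicate 1 again lay between the young values. Scd2 (ENSMUSG00000025203, chromosome 19, 44293674 to 44306864, plus strand), a neighbouring desaturase gene, was at 578 and 1217 CPM in the aged and 459 and 561 CPM in the young samples. Scd2 was 1 of 2 lipogenic genes, with Mlxipl, for which the ages did not overlap, both with aged higher. Of all genes tested, 23.3% had this order, 22.8% had aged lower and 46.1% did not overlap in either direction. The log2 fold change was 0.62 (SE 0.72, edgeR adjusted p = 0.724) for Scd1 and 0.82 (SE 0.42, edgeR adjusted p = 0.533) for Scd2. Without aged replicate 2 these values were -0.054 and 0.18, and without aged replicate 1 they were 1.06 and 1.24. The desaturase genes are near copies, but only 3.15% of the 75-base stretches in Scd1 transcripts and 1.78% of those in Scd2 occurred in another gene.

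**Figure D2:**
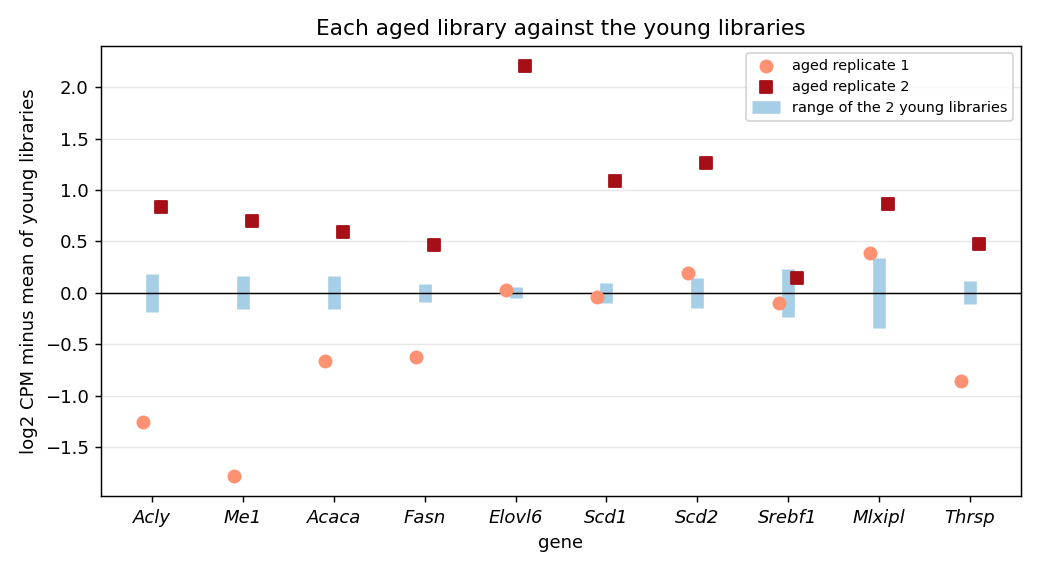
Log2 CPM of each aged library minus the mean of the young libraries for the 10 genes, with blue bars spanning the 2 young libraries. Aged replicate 1 falls to -1.78 for Me1 and -1.26 for Acly but stays between -0.05 and 0.19 for Elovl6, Scd1 and Scd2, while aged replicate 2 reaches 2.20 for Elovl6.

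The transcription factor genes Srebf1 and Mlxipl differed less between the aged libraries than the enzyme genes. Srebf1 (ENSMUSG00000020538, chromosome 11, 60199089 to 60222581, minus strand), which encodes SREBP-1, was at 751 and 889 CPM in the aged and 685 and 947 CPM in the young samples. The aged values lay inside the young range, and the log2 fold change was 0.01 (SE 0.26, edgeR adjusted p = 0.991), with a 95% interval from -0.70 to 0.72, the narrowest of the 10 genes. Exons of Srebf1 overlap those of Rai1 on the other strand over 109 bases, and reads there could be counted to it if strand was ignored.

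Mlxipl (ENSMUSG00000005373, chromosome 5, 135089890 to 135138382, plus strand) was at 301 and 418 CPM in the aged and 181 and 290 CPM in the young samples. The ages did not overlap, but aged replicate 1 exceeded young replicate 2 by less than the young samples differed from each other. The log2 fold change was 0.61 (SE 0.32, edgeR adjusted p = 0.535). Young replicate 1 was the lowest library for Mlxipl, as it was for Elovl6, Scd2 and Srebf1. Without young replicate 1 the log2 fold change was 0.31, whereas without young replicate 2 it was 0.99. Without aged replicate 2 it was 0.35. Thrsp (ENSMUSG00000035686, chromosome 7, 97412938 to 97417730, minus strand), also called Spot 14, a small protein of lipogenic tissues induced by thyroid hormone and carbohydrate, followed the enzymes rather than the transcription factors. It was at 856 and 2160 CPM in the aged and 1438 and 1680 CPM in the young samples, with a log2 fold change of -0.05 (SE 0.51, edgeR adjusted p = 0.972).

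The distance between the aged libraries was described over all 10 genes. Aged replicate 2 was above aged replicate 1 in 10 of 10 genes, against 50.7% of all genes tested, and by a log2 difference over 1 in 8 of 10, against 5.97%, a limit chosen after the values were seen. The difference ranged from 0.24 for Srebf1 to 2.47 for Me1, with a median of 1.19, beside 0.0047 over all genes tested. Between the young libraries the median difference of replicate 2 over replicate 1 was 0.30 for the 10 genes, and their values ranged from -0.19 for Scd1 to 0.68 for Mlxipl. In 8 of the 10 genes the aged libraries differed by more than the young libraries, which held for 34.5% of all genes tested, and the exceptions were Srebf1 and Mlxipl. With a single library behind each of these values, the difference between the aged replicates has no replicate check.

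**Figure D3:**
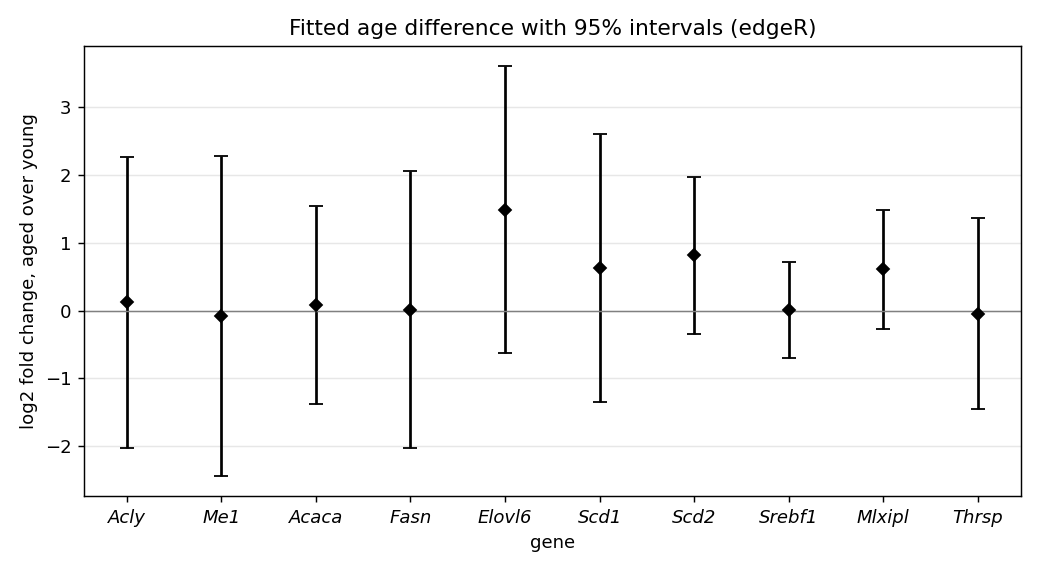
Fitted log2 fold change of each gene in aged over young MFP (diamonds) with its 95% interval from edgeR's quasi-likelihood fit on 2 aged and 2 young libraries. Every interval includes 0, from the narrowest for Srebf1 (-0.70 to 0.72) to the widest for Me1 (-2.44 to 2.28).

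Adipocyte markers did not follow the lipogenic genes. Of the 10 markers, 9 had aged levels wholly above the young levels (background 23.3%), and 9 were higher in aged replicate 1 than in aged replicate 2, the reverse of the lipogenic genes. Adiponectin (Adipoq) was at 1141 and 777 CPM in the aged and 531 and 430 CPM in the young samples, and leptin (Lep) at 503 and 314 CPM in the aged and 170 and 186 CPM in the young samples. The lipid droplet gene Plin4 was at 2753 and 1119 CPM in the aged and 1089 and 929 CPM in the young samples. Only resistin (Retn) had the order of the lipogenic genes, at 409 and 617 CPM in the aged and 509 and 553 CPM in the young samples. edgeR called 0 of the 10 markers, with a median log2 fold change of 0.48, and 2 had an unadjusted p under 0.05, both higher in aged MFP (background 7.24% in that direction). DESeq2 called 2, both higher in aged MFP (background 3.24% in that direction).

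The mean log2 CPM of the 10 lipogenic genes minus that of the 10 adipocyte markers was therefore 0.20 in aged replicate 1, 1.97 in aged replicate 2, 1.28 in young replicate 1 and 1.57 in young replicate 2. Aged replicate 1 had the least lipogenic RNA for its adipocyte marker RNA and aged replicate 2 the most. The mean difference of aged from young was -0.34, smaller than the spread between the aged samples (SD 1.25, n = 2), and the exact two-sided permutation test gave p = 1, where the smallest p possible with 2 samples against 2 is 0.333. Relative to the adipocyte markers, Me1 was at -0.87 and 2.03 in aged replicates 1 and 2, against 1.49 and 1.82 in the young samples. Fasn was at 3.71 and 5.23 in the aged against 4.99 and 5.18 in the young samples, all as log2 differences. For both genes the aged values enclosed the young values.

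**Figure D4:**
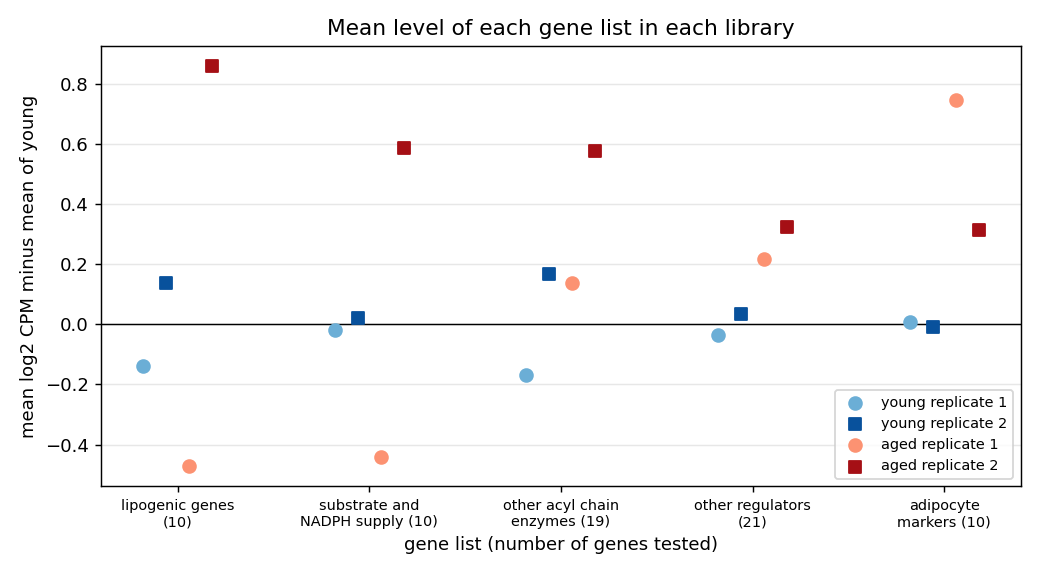
Mean log2 CPM of 5 gene lists in each library, minus the mean of the young libraries. The lipogenic genes lie at -0.47 in aged replicate 1 and 0.86 in aged replicate 2, whereas the adipocyte markers lie at 0.75 and 0.31.

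The ratio of each gene to Fasn in the same library does not depend on how libraries are scaled against one another. This comparison was added after the values were seen. Of the other 9 genes, 4 had a higher ratio in both aged samples than in both young samples, namely Scd1, Scd2, Elovl6 and Mlxipl, and 0 had a lower ratio. Among all genes tested with counts in each library, the ratio to Fasn was higher in both aged samples for 10.6% and lower for 5.44%. The aged values of Fasn enclose its young values, so genes that do not vary with Fasn tend to overlap in this ratio. By CPM, 46.1% of all genes tested did not overlap. The 10.6% is thus a low background for genes that vary with Fasn, and no excess is read from 4 of 9. For every 1000 counts of Fasn there were 33.3 and 33.1 counts of Scd2 in aged replicates 1 and 2, and 18.3 and 19.7 in young replicates 1 and 2. The log2 ratio of Scd2 to Fasn was higher in aged MFP by 0.81, a 1.75-fold difference, with an SD of 0.0078 between the aged and 0.079 between the young samples. Scd1 reached 985.5 and 1016 in aged MFP but 750 and 581 in young MFP, a 1.52-fold difference. Elovl6 reached 40.1 and 85.4 in aged MFP but 26.2 and 25.0 in young MFP, a 2.29-fold difference, and Mlxipl 17.3 and 11.4 against 7.22 and 10.2, a 1.64-fold difference. On the log2 scale the Elovl6 difference of 1.19 was 0.65 without aged replicate 2, and the Mlxipl difference of 0.71 was 0.41 without aged replicate 1 and 0.46 without young replicate 1. Acaca was held at a near constant ratio to Fasn, between 121 and 139 counts in all 4 libraries. The ratio of Me1 varied most between the aged libraries, at 41.6 and 108.9 beside 88.3 and 97.4 in young MFP. Acly stood at 106 and 213 in aged MFP and enclosed the young values of 154 and 177. A single ratio over 2 samples against 2 cannot give an exact permutation p below 0.333.

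**Figure D5:**
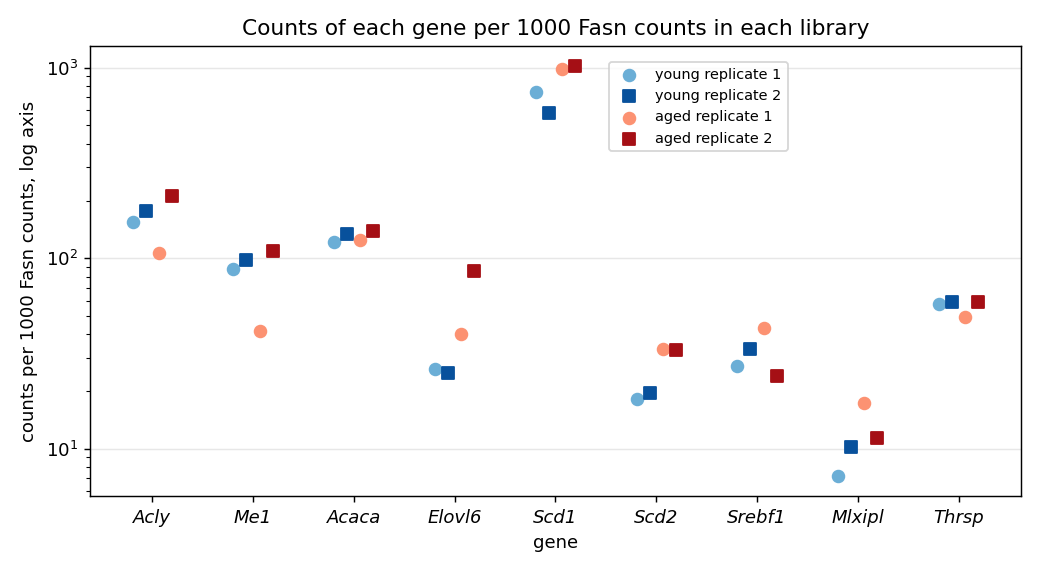
Counts of each of the other 9 genes per 1000 Fasn counts (log axis) in each library. The aged points of Scd2 coincide near 33 and lie above the young points at 18.3 and 19.7, and Acaca lies between 121 and 139 in every library.

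Enzymes that feed the route carried the same split between the aged libraries. Of 10 genes for citrate export, acetyl-CoA and NADPH supply, 9 were highest in aged replicate 2 and 7 of them were also lowest in aged replicate 1, against 21.6% and 4.21% of all genes tested. Acss2, which makes acetyl-CoA from acetate, was at 225 and 1234 CPM in the aged and 673 and 717 CPM in the young samples. Slc25a1, the mitochondrial citrate carrier, was at 467 and 1390 CPM in the aged and 701 and 910 CPM in the young samples. Tkt, the transketolase of the pentose phosphate pathway, was at 1261 and 3838 CPM in the aged and 2236 and 2538 CPM in the young samples. These 3 genes were chosen with their values in view. By the rule for naming genes, the largest age differences of this list were those of Idh1, a cytosolic NADPH source, with a log2 fold change of 0.54 (SE 0.17, edgeR adjusted p = 0.445), Cs, the citrate synthase, with 0.33, and Pgd, of the pentose phosphate pathway, with 0.27. Idh1 was at 240 and 226 CPM in the aged and 176 and 144 CPM in the young samples, and so did not share the split.

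Of 21 other genes of acyl chain synthesis, elongation and desaturation, 19 were tested. Of these, 12 were highest in aged replicate 2, against 21.6% of all genes tested. Elovl3, an elongase of very long saturated chains, was low throughout, at 1.60 and 5.66 CPM in the aged and 0.695 and 1.18 CPM in the young samples, with a log2 fold change of 1.95 (SE 0.75, edgeR adjusted p = 0.486). Fads1, the delta-5 desaturase of polyunsaturated fatty acids, was at 185 and 205 CPM in the aged and 91.7 and 132 CPM in the young samples, with a log2 fold change of 0.80 (SE 0.23, edgeR adjusted p = 0.426). Scd3, a desaturase with little RNA here, had 0.90 from levels of 1.33 CPM or less. For Elovl3, Fads1 and Scd3 alike the lower aged sample exceeded the higher young sample. These genes were named for the size of their age differences, which favours this order. Of the 19 genes tested, 8 had it, against 23.3% of all genes tested.

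Of 21 other regulators, 9 were highest in aged replicate 2, against 21.6% of all genes tested. Their median difference between the aged libraries was 0.01, beside 1.19 for the 10 lipogenic genes. The largest age differences were those of Prkaa2, a catalytic subunit of AMP-activated kinase that inhibits acetyl-CoA carboxylase and is abundant in muscle, Rxra, the partner of LXR and PPAR receptors, and Pparg, the transcription factor of adipocytes. Prkaa2 was at 106 and 185 CPM in aged but 36.2 and 59.6 CPM in young MFP, with a log2 fold change of 1.60 (SE 0.40, edgeR adjusted p = 0.408, DESeq2 adjusted p = 0.0132), beside the higher muscle markers of both aged libraries, whose part in it was not tested. Rxra was at 223 and 225 CPM in aged but 119 and 140 CPM in young MFP, with a log2 fold change of 0.78 (SE 0.15, edgeR adjusted p = 0.37, DESeq2 adjusted p = 0.0124). Pparg had a log2 fold change of 0.70 (edgeR adjusted p = 0.404). Over the 3 lists, 50 of 52 genes were tested, of which edgeR called 0 (background 0%), 6 had an unadjusted p under 0.05, all with higher levels in aged MFP (background 7.24% in that direction), and DESeq2 called 2, Prkaa2 and Rxra (background 3.24% in that direction). The median log2 fold change of the 50 genes was 0.18.

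The other genes whose levels were most like the mean of the 10 lipogenic genes were found by the root mean square distance of centred log2 CPM over the 4 libraries, among 10524 genes with a mean of at least 10 CPM. They were Gpi1 (glucose-6-phosphate isomerase, distance 0.06), Nsdhl (a sterol synthesis enzyme, 0.06), Dipk1b (0.07), Plin2 (a lipid droplet coat protein, 0.07) and Mapk8ip1 (0.08). Gpi1 was at 312 and 750 CPM in the aged and 407 and 443 CPM in the young samples, and Plin2 at 260 and 576 CPM in the aged and 299 and 358 CPM in the young samples. The likeness covers 4 libraries only. Among the 10 genes themselves, Acaca (0.12), Fasn (0.17) and Thrsp (0.19) lay closest to the mean, and Elovl6 and Me1 (both 0.55) lay farthest. Of the 10524 genes compared, 52.7% lay closer to the mean than Elovl6 and 50.9% closer than Me1.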

How the data were processed

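Total RNA of whole MFP tissue was depleted of ribosomal RNA and sequenced as strand-keeping libraries. The deposited values are raw read counts for each gene, which the authors left unnormalized and unpooled. The submitters' processing notes name featureCounts, R 3.6.1 and GRCm38. The aligner, annotation release and strand setting are not given in the sources used here. Total counts ranged from 68803304 to 98402403.

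Age and replicate number were taken from the sample labels. Genes kept by filterByExpr (22485 of 55487) were normalized by TMM, then fitted with glmQLFit and compared with glmQLFTest in edgeR 4.0.16, R 4.3.3 (limma 3.58.1), with age as the only term and Benjamini-Hochberg adjustment at 0.05. Standard errors are the size of the log2 fold change divided by the square root of F, and 95% intervals use the degrees of freedom of the same test. DESeq2 1.42.0, used by the study, was run as an alternative on all genes with a count. Log2 CPM used a prior count of 2. The main edgeR fit and DESeq2 were first tested on simulated data, and the other alternatives were not. With 2 samples against 2, the smallest exact two-sided permutation p is 0.333.

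The 10 genes and all lists were chosen with earlier results of these data known. Named besides the 10 genes were the 3 largest absolute log2 fold changes of each pathway list, any adipocyte marker, leading markers of other tissues and the 5 genes nearest in pattern; others are said to be singled out after their values were seen. Exon lengths and overlaps come from GENCODE M21, which holds 55227 of the gene identifiers, and promoters from RefSeq. For 114 symbols that occur repeatedly, the row with the higher total was used. Alternatives were other scalings and filters, the replicate block, DESeq2 and leaving out each sample.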

Additional observations from a re-analysis of the deposited data

How the results depend on the processing

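No alternative called any of the 10 lipogenic genes (0 genes in each of edgeR's settings and DESeq2), but the directions of most were not stable. DESeq2 called 869 genes in all and 2 of the other pathway genes, where edgeR called 0 of each and had 2371 and 6 at an unadjusted p under 0.05. Scaling by total counts only moved the median of all genes by more than 0.1, to -0.22, and gave log2 fold changes of -0.18 for Fasn, -0.093 for Acly, -0.12 for Acaca and -0.18 for Srebf1, all reversed from the main direction. Total counts without mitochondrially encoded genes gave -0.18, -0.085, -0.11 and -0.17 for the same genes. Upper quartile scaling gave -0.020 for Fasn and -0.029 for Srebf1, and no filter on low counts gave -0.00010 and -0.0054. Deviations of same-numbered samples from their age means correlated at -0.48 across genes. With 2 samples per age, samples of different number then correlate by the same size with a positive sign. This value therefore cannot show whether samples were paired or shared a batch, which was not tested. With the replicate number as a block, Fasn was at -0.082, Acly at -0.22 and Acaca at -0.035, with 0 genes called. A block on crossed replicate numbers, an alternative chosen after seeing the data, gave -0.082, -0.22 and -0.035, again with 0 genes called. Elovl6, Scd2 and Mlxipl kept a positive log2 fold change in every alternative run, and Scd1 in all but the one without aged replicate 2.

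When samples were left out singly, the lone sample of an age being assumed to vary like the others, the median log2 fold change of the 10 genes ranged from -0.38 without aged replicate 2 to 0.73 without aged replicate 1. It ranged from -0.63 to 0.44 for Fasn, -0.054 to 1.06 for Scd1, -1.28 to 0.80 for Acly, -0.67 to 0.56 for Acaca, -1.79 to 0.67 for Me1, -0.21 to 0.26 for Srebf1, 0.31 to 0.99 for Mlxipl, 0.18 to 1.24 for Scd2, 0.02 to 2.18 for Elovl6 and -0.87 to 0.45 for Thrsp. The level relative to adipocyte markers ranged from -1.22 to 0.55. The ratio of Scd2 to Fasn, on the log2 scale, ranged from 0.75 to 0.86, that of Scd1 from 0.42 to 0.79, that of Elovl6 from 0.65 to 1.74 and that of Mlxipl from 0.41 to 1.02. The cause of these shifts was not tested.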

Other observations

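Reads of Acaca and Me1 can also match processed copies elsewhere in the genome. Of the 75-base stretches in annotated Acaca transcripts, 26.8% occurred in transcripts of another gene, and of those in Me1, 20.0%. The counts given to the Me1 copy Gm7049 were 345 and 1953 in aged replicates 1 and 2, beside 1046 and 1080 in young replicates 1 and 2. The Acaca copy Gm5182 had 2140 and 5572 counts in aged MFP, beside 3168 and 3292 in young MFP. Both copies had the order of libraries of their parent gene, and the share of their counts that came from the parent was not tested. These counts are small beside those of Me1, between 59033 and 356979 a library, and Acaca, between 176228 and 456113.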
